A study of Homo sapiens with 12 samples.

Results

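The MAP kinase phosphatases are dual-specificity phosphatases (DUSP), enzymes that switch off the MAP kinases ERK, JNK and p38. The group described here holds 9 genes, DUSP1, DUSP2, DUSP4, DUSP5, DUSP6, DUSP7, DUSP8, DUSP10 and DUSP16, of 19775 genes measured. They were taken as every probe set that the array's annotation pairs with one of these symbols, which gave 21 of 54613 probe sets. Of the members, 2 (DUSP2 and DUSP5) had 1 probe set, and DUSP16 had the most. The cells were INA-6, a line from a human myeloma, and each group had 4 arrays. The first group was treated with the Raf inhibitor SB590885, which the labels class as B-Raf inhibition, the second with the MEK inhibitor PD325901, and the third with DMSO, the solvent, as the control. All 3 groups grew with interleukin-6 (2 ng/ml), the cytokine on which this line depends, and with 10% serum. The sources used here do not give inhibitor concentrations or treatment times, so the inhibitors are compared as applied, in 1 cell line.

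Each of these phosphatases removes phosphate from both the threonine and the tyrosine that activate a MAP kinase, and so returns the kinase to its inactive state. Several of their genes are themselves induced by MAP kinase signalling, which makes the phosphatases negative feedback regulators of the pathway that induces them. DUSP6 and DUSP7 are cytoplasmic and prefer ERK. DUSP5 is nuclear and prefers ERK, and DUSP1, DUSP2 and DUSP4 are inducible nuclear enzymes with broader substrates. DUSP8, DUSP10 and DUSP16 act mainly on JNK and p38.

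Values are log2 expression values, so a difference of 1 is a doubling or its inverse. The brightest probe set of a gene, by its mean over all 12 arrays, stood for the gene, and the other probe sets are given beside it. A transcript rose or fell where limma, a linear model fitted over all 19775 genes, gave a Benjamini-Hochberg adjusted p under 0.05. The median over all probe sets was 6.92, and probe sets near or under it carry little signal. Levels of different genes are not compared, since probe sets differ in brightness.

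Across all genes the arrays carried a difference that crossed the treatment groups. Arrays 3 and 4 of every group bear an R in a second label, which the labels do not explain, and the first principal component (46.7% of the variance) separated them from arrays 1 and 2. Same-numbered arrays of different groups deviated together, so the fit was repeated with the replicate number as a block, and its adjusted p is given where it changes the call of a member. Within a set of 2 arrays of 1 mark, the differences between the numbers correlated weakly between SB590885 and the other groups (0.0675 to 0.212), and at 0.346 and 0.859 between PD325901 and DMSO. The 4 arrays of a group are biological replicates by the series' design text. The p-values set each difference between groups against the spread of arrays within groups, pooled over the 3 groups. Without the block, that spread also holds the difference between arrays with and without the R mark. The ratio of 3' to 5' signal of the GAPDH control probe sets, on the log2 scale, averaged 0.44 ± 0.04 on SB590885 arrays, 0.43 ± 0.06 on PD325901 arrays and 0.37 ± 0.03 on DMSO arrays (SD, n = 4 each). For the ACTB control probe sets it averaged 1.65 ± 0.17, 1.64 ± 0.10 and 1.58 ± 0.17 in the same order. For both controls the ratio was above that of the same-numbered DMSO array in 4 of 4 pairs with SB590885 and 3 of 4 with PD325901. The part of these ratios in the differences of the members was not tested. All 10 plasma cell and myeloma markers were above the median of all probe sets in all 3 groups, and 3 of them (SLAMF7, XBP1 and SDC1) fell with SB590885. The lowest of the 10 lay close to that median, at 7.01 with SB590885, 7.06 with PD325901 and 6.95 with DMSO. In the same order of groups, 1, 2 and 2 of 5 T cell markers and 1, 1 and 1 of 5 monocyte markers were above it. Of 2 erythroid markers 1, 2 and 1 were above it, and of 4 fibroblast markers 2, 2 and 2. Of 10 interferon-induced genes, a set chosen with earlier results known, the median was 11.1 on PD325901 array 2 and 11.5 on DMSO array 2, against 6.55 to 9.15 on the other arrays.

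The upstream sequences of 4 members are shown because these genes lay on opposite sides of DMSO with SB590885: DUSP6 and DUSP7 had lower transcript levels, and DUSP1 and DUSP10 had higher ones that did not pass the test without the replicate block and did with it. The windows hold the 250 bases before the RefSeq gene start on the minus strand of GRCh38.p14, at chr12:89352502-89352751 for DUSP6, chr3:52056572-52056821 for DUSP7, chr5:172771196-172771445 for DUSP1 and chr1:221742090-221742339 for the outer start of DUSP10. Capitals mark matches on either strand to 4 motifs of factors that act in MAP kinase signalling: the ETS core CCGGAA, the cyclic AMP response element core TGACGT, the AP-1 site TGANTCA and the CArG box of serum response factor.
DUSP6: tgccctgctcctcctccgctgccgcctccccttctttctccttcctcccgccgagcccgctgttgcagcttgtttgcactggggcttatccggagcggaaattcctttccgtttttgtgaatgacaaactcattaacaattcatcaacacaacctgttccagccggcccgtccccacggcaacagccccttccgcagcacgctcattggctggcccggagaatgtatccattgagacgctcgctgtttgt
DUSP7: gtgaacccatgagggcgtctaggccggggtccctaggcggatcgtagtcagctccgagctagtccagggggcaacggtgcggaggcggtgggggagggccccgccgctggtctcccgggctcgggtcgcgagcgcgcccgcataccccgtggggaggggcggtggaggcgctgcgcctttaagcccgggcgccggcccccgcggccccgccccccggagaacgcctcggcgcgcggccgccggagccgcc
DUSP1: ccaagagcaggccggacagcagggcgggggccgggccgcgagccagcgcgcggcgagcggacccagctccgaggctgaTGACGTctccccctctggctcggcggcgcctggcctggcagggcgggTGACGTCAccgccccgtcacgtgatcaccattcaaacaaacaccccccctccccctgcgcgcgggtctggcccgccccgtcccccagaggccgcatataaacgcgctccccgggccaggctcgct
DUSP10: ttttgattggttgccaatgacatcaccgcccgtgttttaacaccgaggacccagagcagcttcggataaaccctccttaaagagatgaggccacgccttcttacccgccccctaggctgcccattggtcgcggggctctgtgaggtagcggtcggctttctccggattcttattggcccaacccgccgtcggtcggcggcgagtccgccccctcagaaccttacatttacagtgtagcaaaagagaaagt
DUSP1 held 3 matches to TGACGT, 2 of them the same palindrome read on both strands. DUSP6, DUSP7 and DUSP10 held 0 matches to any of the 4. Of 35116 such windows in RefSeq, 14.5% held the ETS core, 7.1% TGACGT, 6.57% the AP-1 site and 1.16% the CArG box. Of the other members searched, DUSP8 held 4 matches to TGACGT, which are 2 palindromes read on both strands. Its window, chr11:1572272-1572521, lay inside the span of the gene, before an inner start. DUSP2, DUSP16 and the inner start of DUSP10 held 0 matches to any of the 4, and DUSP4 was not searched. These matches describe the letters of the windows only.

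Comparing SB590885 with DMSO asks how the phosphatase genes respond when Raf is inhibited. Of the 9 members 4 fell, DUSP6, DUSP4, DUSP7 and DUSP2, 0 rose and 5 did not pass, where 1.69% of all genes fell and 1.59% rose. At an unadjusted p under 0.05, 4 were lower and 2 higher, where 6.84% of all genes were lower and 6.7% higher. The replicate block gave 4 lower and 4 higher (DUSP1, DUSP5, DUSP8 and DUSP10), where it called 9.84% of all genes lower and 9.09% higher. The 4 fallen members were also those whose SB590885 arrays all lay below all DMSO arrays, as for 5.76% of all genes, and 0 members lay above them, as for 4.45% of all genes. The median difference of the 9 members was 0.13, against 0.0038 over all genes.

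The comparison of PD325901 with DMSO asks which phosphatase genes respond to inhibition of MEK, the kinase between Raf and ERK. Of the 9 members 2 fell, DUSP6 and DUSP4, 0 rose and 7 did not pass, where 0.506% of all genes fell and 0.086% rose. At an unadjusted p under 0.05, 4 were lower and 0 higher, where 4.73% of all genes were lower and 2.07% higher. The block called 4 lower, with DUSP5 and DUSP7 added, and 0 higher, where it called 6.18% of all genes lower and 1.96% higher. PD325901 arrays all lay below all DMSO arrays for DUSP4, DUSP5 and DUSP6, as for 2.68% of all genes, and above them for 0 members, as for 1.4% of all genes. DUSP6 had the largest difference of all 19775 genes in this comparison, and 8 genes had a larger one than DUSP4. The median difference of the members was -0.10, against -0.0029 over all genes. This comparison and the one before share the DMSO arrays.

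**Figure D1:**
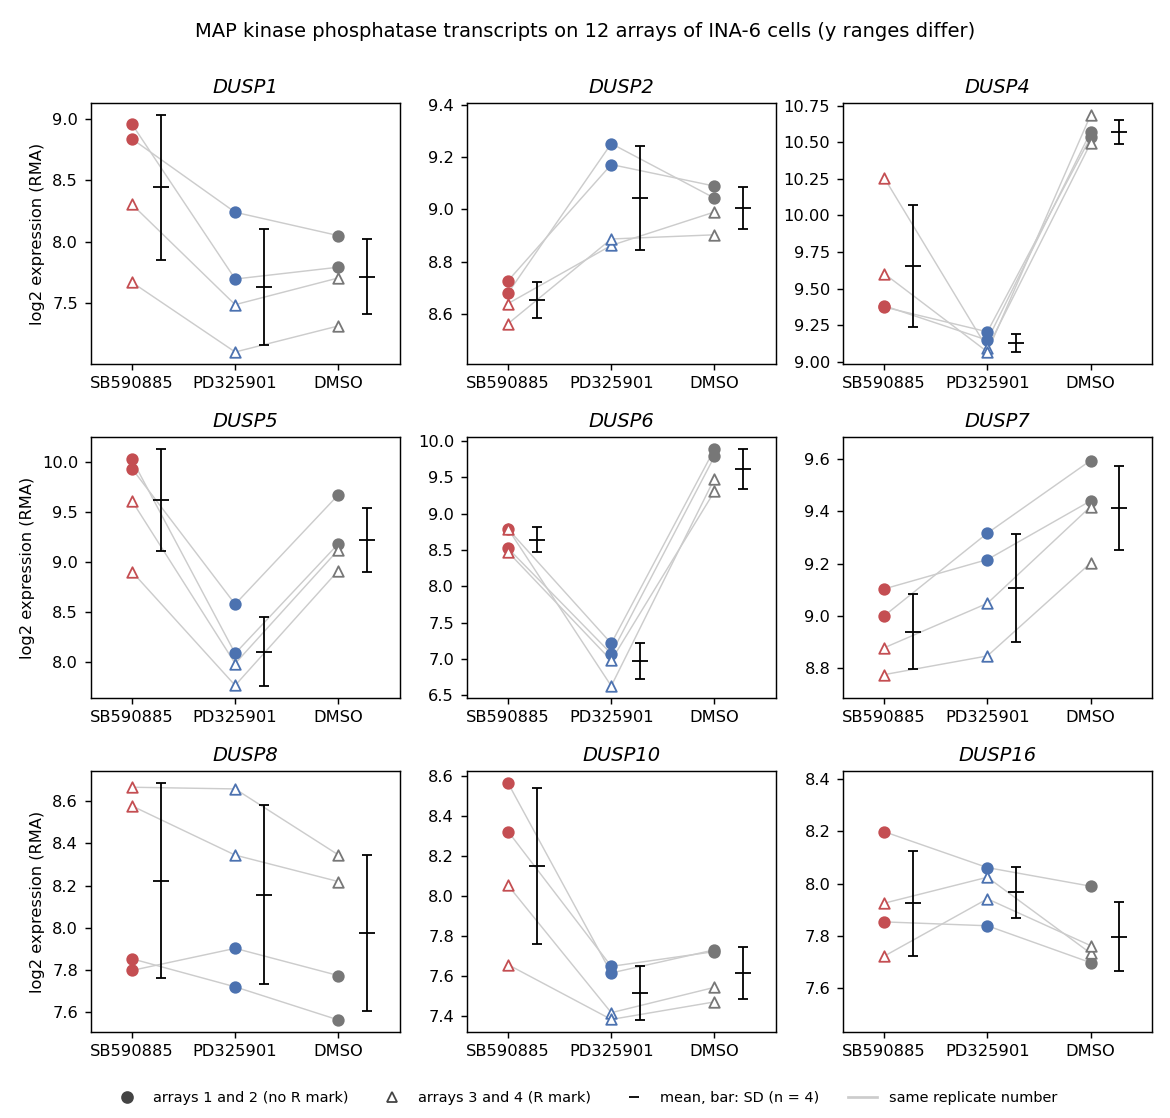
Log2 expression (y axis, ranges differ between panels) of the probe set that stands for each of the 9 phosphatase genes on the 4 SB590885, 4 PD325901 and 4 DMSO arrays (x axis), with the mean and SD (n = 4) beside the points and grey lines between arrays of 1 replicate number. DUSP6 lies between 6.63 and 7.21 on the PD325901 arrays, and DUSP5 is higher with SB590885 and lower with PD325901 than with DMSO on all arrays of numbers 1 to 3.

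DUSP6, the cytoplasmic ERK phosphatase, read 8.52, 8.79, 8.79 and 8.47 on the SB590885 arrays, 7.07, 7.21, 6.63 and 6.98 on the PD325901 arrays and 9.79, 9.89, 9.48 and 9.31 on the DMSO arrays. The 3 groups did not overlap, and the order of levels was PD325901, then SB590885, then DMSO. With SB590885 its level fell to 51.0% of that with DMSO (95% interval 40.7 to 63.8%, log2 difference -0.97, SE 0.15, adjusted p = 0.00639). With PD325901 it fell to 16.0% (12.8 to 20.0%, log2 difference -2.64, SE 0.15, adjusted p = 4.6e-06). The fall was present in both sets of arrays, at -1.18 without and -0.76 with the R mark for SB590885, and at -2.70 and -2.59 for PD325901. Without all 3 arrays of number 1 the SB590885 difference was -0.88 and did not pass without the block (adjusted p = 0.0997). The mean level with PD325901 (6.97) was close to the median of all probe sets, so the size of that fall is not taken as exact. As these are bulk samples, fewer cells with the transcript and less transcript per cell cannot be told apart.

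The other probe sets of DUSP6 gave the same order. The probe set 208892_s_at read 8.11, 8.13, 8.12 and 8.04 with SB590885, 6.53, 6.62, 6.46 and 6.26 with PD325901 and 9.41, 9.37, 9.07 and 9.07 with DMSO. The groups did not overlap, and it had the smallest p of the 21 probe sets in both comparisons with DMSO (differences of -1.13 and -2.76, adjusted p = 0.00026 and 7.81e-08 over all probe sets). Its mean with PD325901 (6.47) lay under the median of all probe sets, so the size of that fall is not taken as exact either. The probe set 208893_s_at differed less, by -0.82 with SB590885 and -1.81 with PD325901 (adjusted p = 0.0068 and 3.37e-05).

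DUSP4, an inducible nuclear phosphatase, read 9.38, 9.37, 10.26 and 9.60 with SB590885, 9.15, 9.20, 9.09 and 9.07 with PD325901 and 10.57, 10.53, 10.49 and 10.69 with DMSO. The DMSO arrays lay above all others, and SB590885 array 3 stood closer to DMSO than the other SB590885 arrays did. The order of levels was PD325901, SB590885, DMSO. The transcript fell to 53.0% of the DMSO level with SB590885 (41.8 to 67.1%, log2 difference -0.92, adjusted p = 0.0104) and to 36.7% with PD325901 (29.0 to 46.6%, log2 difference -1.44, adjusted p = 0.00123). Within the sets, the SB590885 difference was -1.17 without the R mark and -0.66 with it, and without SB590885 array 3 it was -1.12. The PD325901 difference was -1.38 and -1.51. Without all 3 arrays of number 1, 2 or 4 the SB590885 call was lost without the block (adjusted p of 0.0905 to 0.129), as was the PD325901 call without number 4 (adjusted p = 0.0503).

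All 3 probe sets of DUSP4 fell in both comparisons with DMSO. For 204014_at the levels were 9.39 ± 0.12 with SB590885, 8.86 ± 0.10 with PD325901 and 10.09 ± 0.16 with DMSO (SD, n = 4 each). The differences were -0.71 with SB590885 and -1.24 with PD325901 (adjusted p = 0.00235 and 3.94e-05 over all probe sets). For 226034_at they were -0.50 and -1.04 (adjusted p = 0.0327 and 0.000971).

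DUSP7, the other cytoplasmic ERK phosphatase of the group, read 8.999, 9.10, 8.88 and 8.77 with SB590885, 9.32, 9.22, 9.05 and 8.85 with PD325901 and 9.60, 9.44, 9.42 and 9.20 with DMSO. The order of levels was SB590885, PD325901, DMSO, with the PD325901 arrays overlapping both other groups. With SB590885 it fell to 71.9% of the DMSO level (60.7 to 85.1%, adjusted p = 0.0408), at -0.47 without and -0.49 with the R mark. This call was kept without DMSO array 4, PD325901 array 1 or PD325901 array 4 and lost without any one of the 9 others (adjusted p up to 0.13). With PD325901 its level was 80.8% (68.2 to 95.7%), lower than on the same-numbered DMSO array in 4 of 4 pairs, and passed with the block but not without it (adjusted p = 0.491, 0.00168 with the block). The probe set 214793_at, at 7.07 to 7.20 in the group means, passed in neither comparison.

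DUSP2, a nuclear phosphatase abundant in blood cells, read 8.68, 8.73, 8.64 and 8.56 with SB590885, 9.25, 9.17, 8.86 and 8.89 with PD325901 and 9.04, 9.09, 8.99 and 8.90 with DMSO. The SB590885 arrays lay below all others, while PD325901 and DMSO overlapped. It fell to 78.2% of the DMSO level with SB590885 (68.5 to 89.2%, adjusted p = 0.0488), a small difference that was nearly the same in every pair of arrays (-0.36 to -0.34). The call was kept without PD325901 array 1, 3 or 4 and lost without any one of the 9 others (adjusted p up to 0.138), and the adjusted p with the block was 0.000434. With PD325901 the difference was 0.04 (95% interval -0.15 to 0.23, adjusted p = 0.993), at 0.15 without and -0.07 with the R mark.

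**Figure D2:**
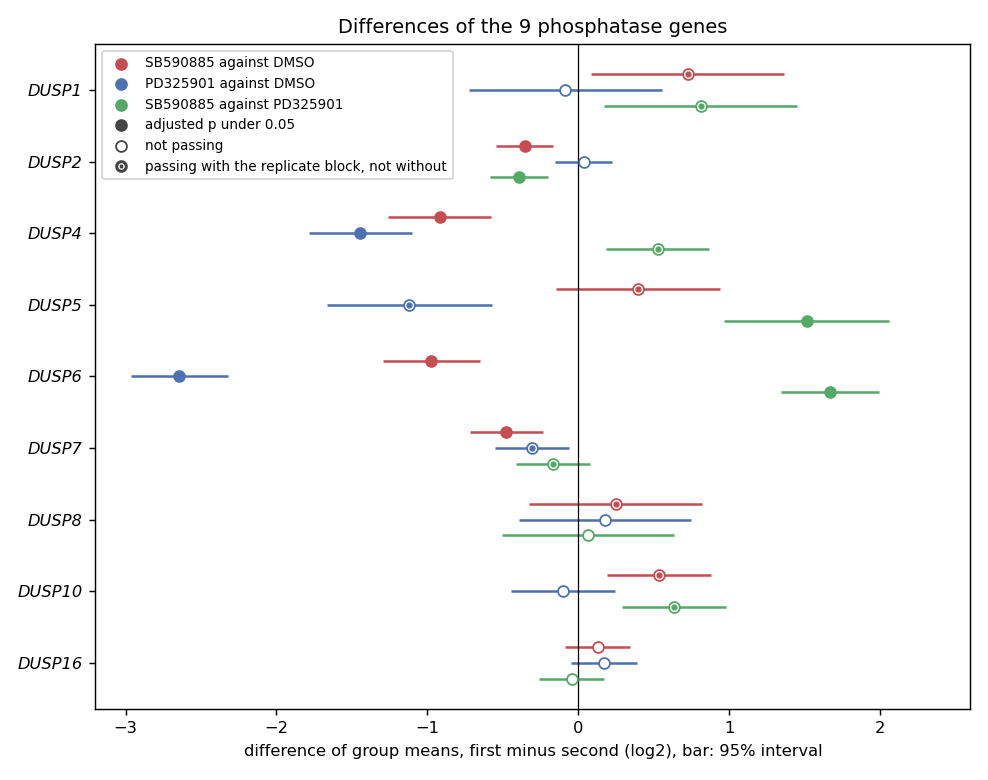
Differences between group means (x axis, log2, first named group minus second) of the 9 phosphatase genes (y axis) with 95% intervals from limma for the 3 comparisons. Filled points passed at an adjusted p under 0.05, open points did not, and a dot inside marks those among them that passed with the replicate block. DUSP6 and DUSP4 lie left of 0 for both inhibitors, while DUSP5 lies at 0.40 for SB590885 and -1.12 for PD325901.

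DUSP5, the nuclear phosphatase specific to ERK, read 10.03, 9.93, 9.61 and 8.90 with SB590885, 8.09, 8.58, 7.99 and 7.77 with PD325901 and 9.18, 9.67, 9.12 and 8.92 with DMSO. The PD325901 arrays were below all others, and SB590885 and DMSO overlapped. The order of levels was PD325901, DMSO, SB590885, and neither step passed without the block. With PD325901 the difference from DMSO was -1.12 (95% interval -1.66 to -0.57), a level of 46.1% of DMSO, and did not pass without the block (adjusted p = 0.0935, 9.45e-06 with it). Pair by pair it was -1.10, -1.09, -1.14 and -1.15 for numbers 1 to 4, so the same-numbered arrays differed by nearly the same amount. It was -1.09 without and -1.14 with the R mark. With SB590885 the difference was 0.40 (95% interval -0.15 to 0.94, adjusted p = 0.615, 0.0137 with the block), and pair by pair 0.84, 0.26, 0.49 and -0.01. That call with the block was lost without number 1 or number 3 (adjusted p = 0.0796 and 0.083) and did not pass with a term for the R mark in place of the block (adjusted p = 0.0931). Without 1 array the difference was lowest, at 0.26, without SB590885 array 1 and highest, at 0.634, without SB590885 array 4.

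Between the inhibitors, DUSP5 was 2.86-fold higher with SB590885 than with PD325901 (log2 difference 1.51, 95% interval 0.97 to 2.06, adjusted p = 0.00797), in 4 of 4 pairs. The difference was 1.65 without and 1.38 with the R mark, and passed without any one of the 12 arrays (adjusted p up to 0.0299). Without all 3 arrays of number 1 or of number 3 it did not pass without the block (adjusted p = 0.101 and 0.0954). DUSP5 had 1 probe set, so no other one could be set beside it, and what its pseudogene DUSP5P1 adds to that signal was not tested.

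**Figure D3:**
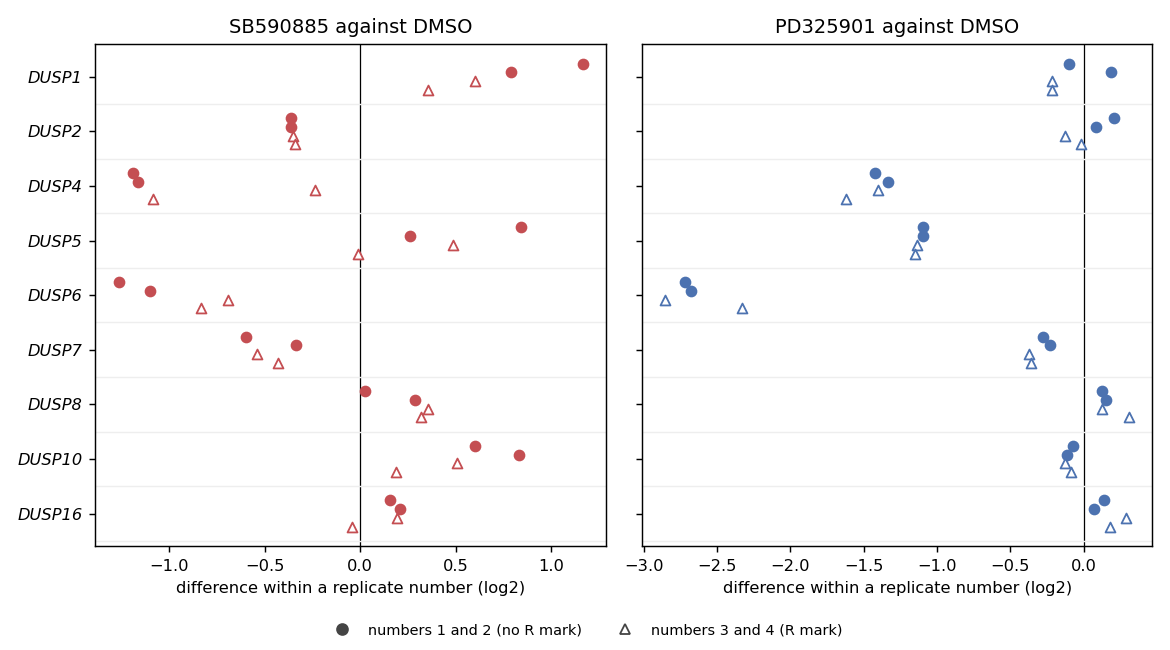
Differences between same-numbered arrays (x axis, log2) of the 9 phosphatase genes (y axis) for SB590885 minus DMSO (left) and PD325901 minus DMSO (right), with 1 point for each of the 4 replicate numbers. The 4 points of DUSP2 with SB590885 and of DUSP5 with PD325901 lie close together, while DUSP4 with SB590885 has number 3 at -0.24 and the others at or below -1.08.

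DUSP1, an immediate early gene whose product acts on JNK and p38 as well as ERK, read 8.96, 8.84, 8.30 and 7.67 with SB590885, 7.70, 8.24, 7.49 and 7.10 with PD325901 and 7.79, 8.05, 7.71 and 7.31 with DMSO. The groups overlapped, but the SB590885 array was the higher one in 4 of 4 pairs with DMSO. The order of levels was PD325901, DMSO, SB590885. The difference of 0.73 (95% interval 0.09 to 1.37) did not pass without the block (adjusted p = 0.267, 0.00022 with it). It was 0.98 without and 0.48 with the R mark. With PD325901 it was -0.08 (95% interval -0.72 to 0.56, adjusted p = 0.995). These values come from the probe set 201041_s_at. The probe sets 226578_s_at and 201044_x_at lay near the median of all probe sets (group means of 7.04 to 7.08 and 6.73 to 6.76) and differed from DMSO by 0.0139 and -0.0024 with SB590885, so they give little information on it and the difference rests on 1 probe set.

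DUSP10, a phosphatase of JNK and p38, read 8.32, 8.57, 8.05 and 7.66 with SB590885, 7.65, 7.62, 7.42 and 7.38 with PD325901 and 7.72, 7.73, 7.54 and 7.47 with DMSO. SB590885 arrays 1 to 3 were above all DMSO arrays and array 4 was within their range. The order of levels was PD325901, DMSO, SB590885. The difference of 0.53 (95% interval 0.19 to 0.88) passed with the block (adjusted p = 0.104, 0.000429 with it) and without SB590885 array 4 (adjusted p = 0.0128). It was 0.72 without and 0.35 with the R mark. With PD325901 the difference was -0.10 (95% interval -0.45 to 0.24, adjusted p = 0.986). The second probe set, 215501_s_at, had the same signs at a lower level (0.24 and -0.07). Its group means of 7.11 with SB590885, 6.80 with PD325901 and 6.87 with DMSO lay near the median of all probe sets, where there is little signal.

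DUSP8, which acts on JNK and p38, differed between the arrays with and without the R mark in every group. It read 7.80, 7.85, 8.58 and 8.66 with SB590885, 7.90, 7.72, 8.34 and 8.66 with PD325901 and 7.77, 7.56, 8.22 and 8.34 with DMSO. In all 3 groups arrays 3 and 4 were above arrays 1 and 2. The order of group means was DMSO, PD325901, SB590885. The differences from DMSO were 0.25 with SB590885 (95% interval -0.32 to 0.82, adjusted p = 0.858, 0.00737 with the block) and 0.18 with PD325901 (-0.39 to 0.75, adjusted p = 0.986). Leaving out 1 array moved them between 0.101 (without SB590885 array 4) and 0.389 (without SB590885 array 1), and between 0.0137 (without PD325901 array 4) and 0.326 (without PD325901 array 2). Its probe set 238594_x_at has a name that marks possible cross-hybridisation, and 206374_at lay under the median of all probe sets in all 3 groups.

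DUSP16, another phosphatase of JNK and p38, did not pass in any of the 3 comparisons, with or without the block. The order of its group means was DMSO, SB590885, PD325901, and the groups overlapped. It read 7.85, 8.20, 7.92 and 7.72 with SB590885, 7.84, 8.06, 8.02 and 7.94 with PD325901 and 7.70, 7.99, 7.73 and 7.76 with DMSO. The differences were 0.13 with SB590885 (95% interval -0.09 to 0.34) and 0.17 with PD325901 (-0.04 to 0.39). Its 3 other probe sets differed from DMSO by 0.02 to 0.04 with SB590885 and by 0.02 to 0.10 with PD325901. Of these, 1563505_at (group means of 6.57 to 6.67) lay under the median of all probe sets. 224336_s_at (6.98 to 7.03) lay near it, so both carry little signal.

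**Figure D4:**
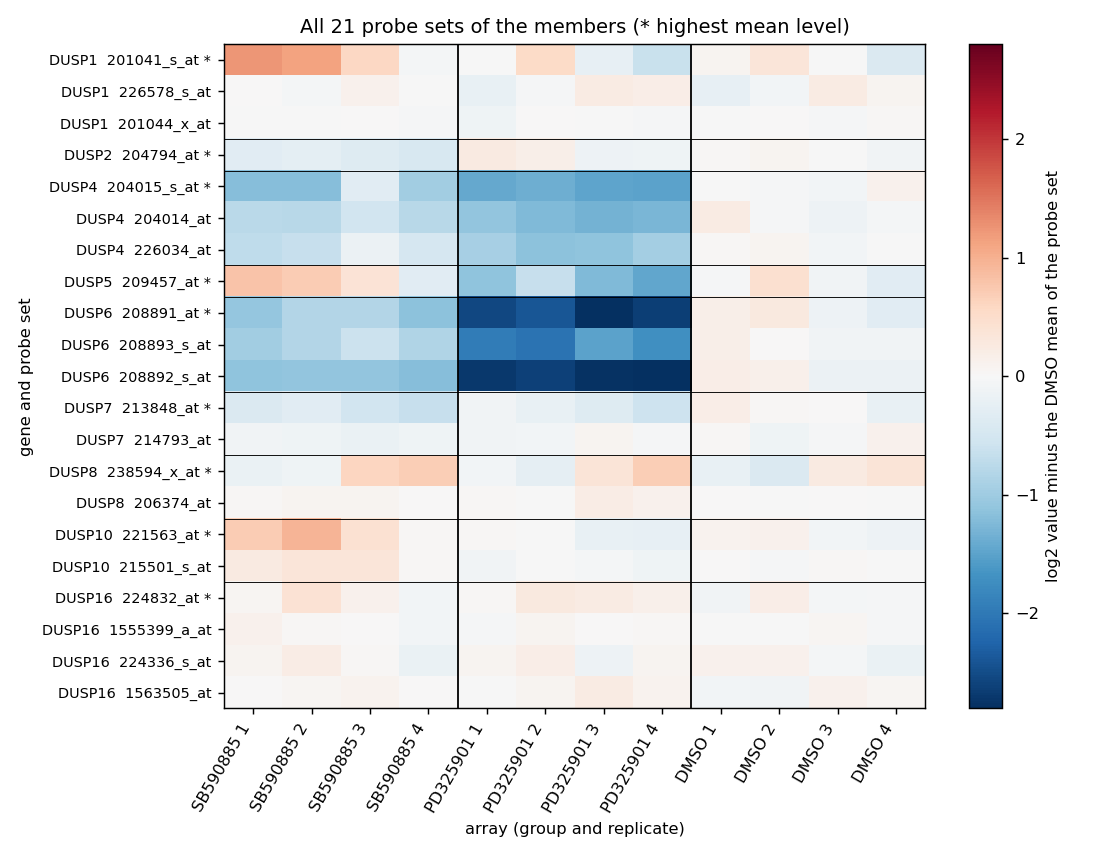
Log2 value minus the DMSO mean of the same probe set (colour) for all 21 probe sets of the 9 genes (rows, with a star at the one that stands for the gene) on the 12 arrays (columns). The 3 rows of DUSP6 and the 3 of DUSP4 lie below the DMSO mean on all SB590885 and PD325901 arrays. The palest of these cells is 226034_at of DUSP4 on SB590885 array 3 (8.74, against a DMSO mean of 8.90). Among the rows of DUSP1, 201041_s_at is the one with clear red on SB590885 arrays 1 to 3.

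Over all 54613 probe sets, the fit of every probe set called 6 of the 21 lower with SB590885, where 1.96% of all probe sets were called, and 6 lower with PD325901, where 0.346% were. In both comparisons the 6 were the 3 of DUSP4 and the 3 of DUSP6. DUSP2 (adjusted p = 0.0602) and 213848_at of DUSP7 (adjusted p = 0.051) did not pass there with SB590885. For SB590885 against PD325901 that fit called 7 of the 21 higher and 1 lower, where 1.78% of all probe sets were called. For DUSP2 and for 213848_at of DUSP7 with SB590885 against DMSO, the block gave adjusted p of 0.000547 and 3.23e-05 over all probe sets.

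Comparing SB590885 with PD325901 directly asks where inhibition at Raf and at MEK differ. DUSP5 and DUSP6 were higher with SB590885, DUSP2 was lower, and 6 of 9 members did not pass, where 1.97% of all genes were higher and 0.855% lower. At an unadjusted p under 0.05, 5 were higher and 1 lower, where 8.54% of all genes were higher and 4.31% lower. With the block 5 were higher, with DUSP1, DUSP4 and DUSP10 added, and 2 lower, with DUSP7 added, where it called 12.4% of all genes higher and 5.73% lower. SB590885 arrays did not overlap PD325901 arrays for 4 members on the higher side (DUSP4, DUSP5, DUSP6 and DUSP10) and for DUSP2 on the lower side, against 4.68% and 2.5% of all genes. The members' median difference was 0.53, against 5e-04 over all genes.

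DUSP6 was 3.18-fold higher with SB590885 than with PD325901 (95% interval 2.54 to 3.98, adjusted p = 0.000192), at 1.51 without and 1.83 with the R mark on the log2 scale. DUSP4 differed by 0.53 (0.19 to 0.87) and did not pass without the block (adjusted p = 0.114, 0.0105 with it). Its other probe sets did, at 0.53 for 204014_at and 0.54 for 226034_at (adjusted p = 0.00833 and 0.0222 over all probe sets). The DUSP4 difference was 0.20 without and 0.85 with the R mark, and 0.326 without SB590885 array 3 (adjusted p = 0.04). Over all probe sets, 3 of 3 of DUSP6 and 2 of 3 of DUSP4 passed, and all 3 of DUSP4 were higher with SB590885 without overlap between the groups.

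DUSP2 was lower with SB590885 than with PD325901 by a log2 difference of -0.39 (-0.58 to -0.20, adjusted p = 0.034), at -0.51 without and -0.27 with the R mark. This call was kept without DMSO array 2 or 4 or PD325901 array 3 or 4 and lost without any one of the 8 others (adjusted p up to 0.0929). DUSP10 was 1.55-fold higher with SB590885 (adjusted p = 0.0573, 9.79e-05 with the block). Its probe set 215501_s_at, near the median of all probe sets, passed (difference 0.30, adjusted p = 0.0338 over all probe sets). DUSP1 was 1.75-fold higher (adjusted p = 0.216, 7.94e-05 with the block). For DUSP7 the difference was -0.17 (-0.41 to 0.08; adjusted p = 0.663, 0.031 with the block). The intervals were -0.50 to 0.64 for DUSP8 and -0.26 to 0.17 for DUSP16, which leave room for differences in either direction.

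**Figure D5:**
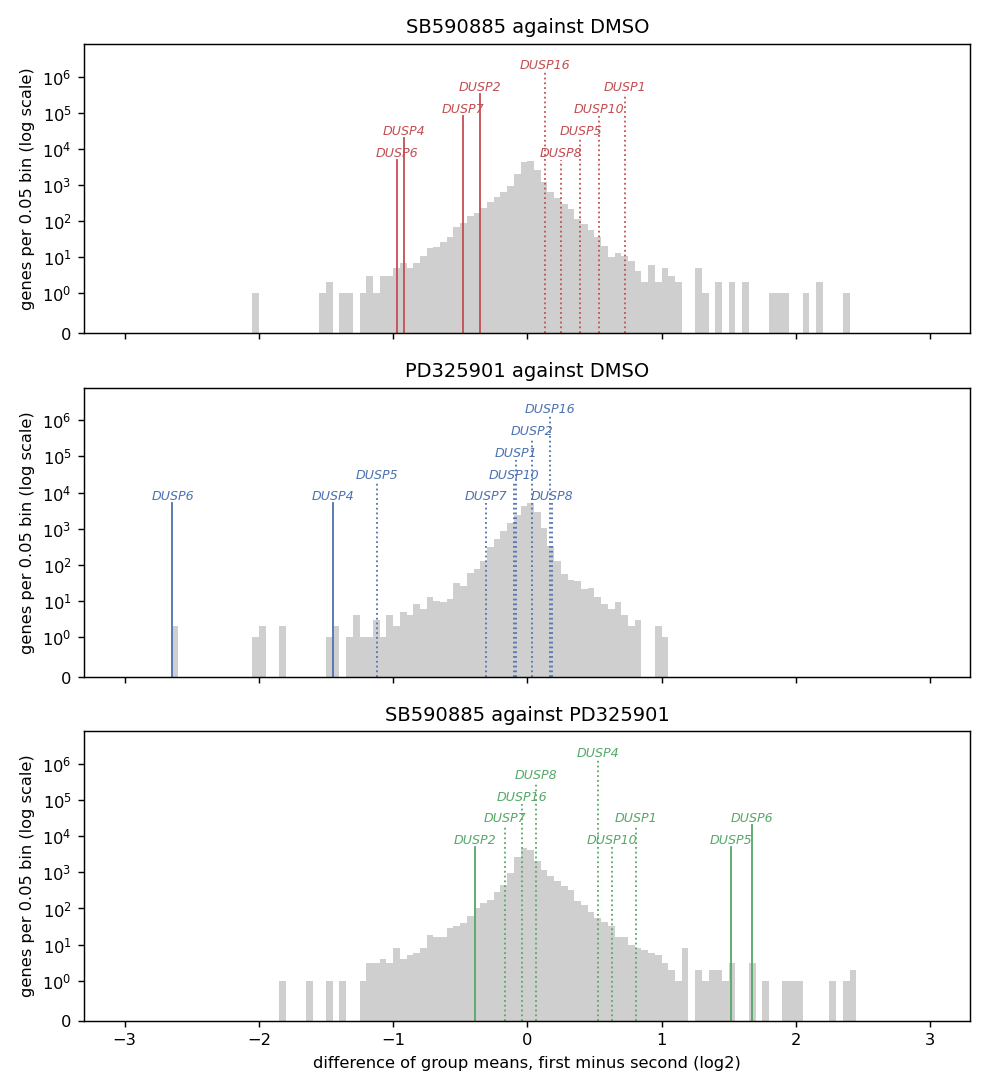
Number of genes (y axis, log scale) by difference between group means (x axis, log2, first named group minus second) for the 3 comparisons over 19775 genes, with a line for each of the 9 phosphatase genes, solid where it passed and dotted where it did not. In the PD325901 panel DUSP6 stands at -2.64, the far end of all genes, and in the SB590885 panel the members lie on both sides of 0.

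Other genes of the pathway were taken from lists, and their counts are read beside the shares of all genes. At an unadjusted p under 0.05, 6.84% of all genes were lower and 6.7% higher with SB590885 against DMSO. Those shares were 4.73% and 2.07% with PD325901 against DMSO, and 4.31% and 8.54% with SB590885 against PD325901. With the block they were 9.84% and 9.09%, 6.18% and 1.96%, and 5.73% and 12.4% in that order. A count near its share says nothing particular about its list. Of 15 measured dual-specificity phosphatases outside the group, 0 passed in limma in any of the 3 comparisons, with 2, 0 and 4 at an unadjusted p under 0.05 for SB590885 against DMSO, PD325901 against DMSO and SB590885 against PD325901. With the block 2 were higher and 1 lower with SB590885 against DMSO, 1 was lower with PD325901 against DMSO, and 4 were higher with SB590885 than with PD325901. With SB590885 against DMSO the smallest p was that of DUSP9, at -0.14 (adjusted p = 0.136, 0.0438 with the block). Its means, 6.61 with SB590885 and 6.75 with DMSO, lay under the median of all probe sets. Next by p was DUSP28, at 0.40 (adjusted p = 0.174, 0.000188 with the block). Of 3 tyrosine phosphatases of MAP kinases (PTPN5, PTPN7 and PTPRR), 0 passed with or without the block, or at an unadjusted p under 0.05. Of 8 measured MAP kinase genes 0 passed, with 2, 0 and 2 at an unadjusted p under 0.05 in those comparisons. With the block 1 was higher with SB590885 than with DMSO and than with PD325901, MAPK8, which encodes a JNK (difference 0.40, adjusted p = 0.138, 0.000268 with the block, against DMSO, and difference 0.49, adjusted p = 0.069, 4.27e-05 with the block, against PD325901). Of 2 measured MAP kinase kinases of the JNK and p38 branches, MAP2K4 and MAP2K6, 0 passed without the block, with 0, 1 and 1 at an unadjusted p under 0.05. With the block MAP2K6 was lower with PD325901 than with DMSO (difference -0.33, adjusted p = 0.0139) and MAP2K4 higher with SB590885 than with PD325901 (difference 0.32, adjusted p = 0.00532).

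Feedback inhibitors and outputs of ERK outside the group fell in a few cases. In limma without the block, 1.69% of all genes fell and 1.59% rose with SB590885, and 0.506% fell and 0.086% rose with PD325901. Between the inhibitors, 1.97% were higher and 0.855% lower with SB590885. The shares with the block and at an unadjusted p are those given for the lists above. Of 7 Sprouty and SPRED genes, whose products restrain the cascade upstream of ERK, 1 fell with SB590885 (SPRY1, -0.46, adjusted p = 0.00609) and 3 fell with PD325901 (SPRED2 by a log2 difference of -1.83, SPRED1 by -1.49 and SPRY1 by -0.43). SPRED1 stood at -0.56 with SB590885 (adjusted p = 0.16, 5.16e-06 with the block) and SPRED2 at -0.34 (adjusted p = 0.0586, 0.00441 with the block), which makes 3 lower with SB590885 under the block. Both SPRED1 and SPRED2 were higher with SB590885 than with PD325901 (0.92 and 1.49). Of 8 genes of a list of ERK outputs, which shares SPRY2 and SPRY4 with the 7 above, 1 fell with each inhibitor, the ETS factor gene ETV5, with differences of -1.21 with SB590885 and -1.82 with PD325901. Of 25 immediate early genes, the class to which DUSP1 belongs, 5 rose and 0 fell with SB590885 at a median difference of 0.22, among them JUND (1.90), JUN (1.32) and KLF2 (0.60). With the block 10 were higher, and 7 at an unadjusted p under 0.05. With SB590885 against PD325901 1 was higher (KLF2), and with the block 12 were higher and 1 lower. With PD325901 0 of the 25 passed, 1 was higher with the block and 1 at an unadjusted p under 0.05, and the median difference was -0.0013.

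Transcripts whose pattern was most like that of a member were found by Pearson's r over the 12 arrays after the mean of the 3 arrays of a replicate number was subtracted, among 12866 genes. The points share 3 treatments, so r describes mainly the order and relative spacing of the group means. For DUSP6 the 5 highest were TRIB2, SPRED1, NDFIP2, C16orf74 and PRKD3 (r of 0.986 to 0.994), with group means of 7.91, 6.99 and 8.47 for SPRED1 with SB590885, PD325901 and DMSO. For DUSP4 they were CHD1, INPP5D, GPRIN3, TMC8 and ITGAL (r of 0.978 to 0.989). Without the subtraction r was 0.677 to 0.953 for the genes named for DUSP6 and 0.434 to 0.919 for those named for DUSP4.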

How the data were processed

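RNA of INA-6 cells was hybridised to Affymetrix HG-U133 Plus 2.0 arrays, 4 for each of the 3 groups, which were taken from the sample labels. The deposited values are log2 expression levels of probe sets, made by the authors with RMA in R 3.0.1, per the submitters' processing notes. The sources used here do not say whether all 12 arrays were normalised at once. After removal of 62 control probe sets from 54675, the annotation gave 41091 probe sets with 1 gene symbol, 1801 with more than 1 and 11721 without. Those with 1 symbol were used, and symbols were updated through gene identifiers.

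limma 3.58.1 (lmFit and eBayes, R 4.3.3) was fitted to the 3 groups over all 12 arrays, with Benjamini-Hochberg adjustment over all 19775 genes and a threshold of 0.05. The fit without the block was run on simulated data with independent noise on each array. That run does not cover the differences which the real arrays share by R mark and replicate number. No filter on low values was applied, 1 probe set stood for each gene, and the number of arrays limits the precision. The members and the gene lists were chosen with earlier results of these data known. Named genes are the 9 members with all their probe sets, up to 3 genes of each list by smallest p, and the 5 genes most like DUSP6 and DUSP4 among those with a group mean at or above the median of all probe sets.

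Replicate numbers come from the labels. After group means were subtracted, arrays of the same number correlated at 0.544 to 0.913 across groups in 12 of 12 pairs, against 0.123 to 0.646 for other numbers of the same R mark, and 12 of 12 arrays correlated best with their own number. The 24 pairs of other number and other R mark correlated at -0.718 to -0.443, so the R mark also enters these correlations. All same-numbered pairs were over 0.1, so the number was used as a block in a repeated fit. Pairs of other number and same R mark were also over 0.1, so this rule alone cannot tell the number from the mark. Alternatives were the replicate block, the R mark as a term, arrays with or without the R mark alone, centring, quantile normalisation, other rules for the probe set of a gene, a filter on low values, a trended variance, a fit of the 2 groups alone and leaving out single arrays. Leaving out all 3 arrays of a replicate number was added after the data had been seen. Upstream sequences were taken from RefSeq (GRCh38.p14) for 7 of 9 members. DUSP4 was left out of the motif search by choice, so its matches are not known, and no entry was found for DUSP5.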

Additional observations from a re-analysis of the deposited data

Results flagged for a closer look

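The DUSP4 probe set 204014_at read 9.56 on SB590885 array 3, far from the other 3 SB590885 arrays relative to the range of that group. It was the 1 such value among 63 sets of 4 arrays (21 probe sets in 3 groups), and chance marks about 1 in 20 such sets. The array still lay below all 4 DMSO arrays for this probe set.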

How the results depend on the processing

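DUSP6 and DUSP4 against DMSO with either inhibitor, and DUSP6 and DUSP5 with SB590885 against PD325901, kept their direction and passed without any one of the 12 arrays and under 11 other settings. Leaving out all 3 arrays of a number ended some of these calls, as given with the results. Of the 9 members, SB590885 against DMSO passed 4. That count was 8 with the replicate block, 7 with a term for the R mark, and 2 with arrays centred on their median, with a variance trend or with every probe set tested. PD325901 against DMSO passed 2, but 4 with the block, with a term for the R mark or on the arrays with the R mark alone. SB590885 against PD325901 passed 3, but 7 with the block, 6 with a term for the R mark, 6 on the arrays without and 6 on those with it, and 5 with quantile normalisation or the mean of all probe sets. Apart from the calls given with the results, the block changed no member's call. Leaving out 1 array gave 2 to 4, 2 to 3 and 2 to 3 in the 3 comparisons in that order. Leaving out all 3 arrays of a number, chosen after seeing the data, gave 0 to 3, 1 to 2 and 1 to 3. The 0 was SB590885 against DMSO in limma without number 1, where 5 members had an unadjusted p under 0.05 and 7 passed with the block. The same with the block gave 7 to 9, 4 to 4 and 6 to 7.

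Over all genes, 649, 117 and 558 passed in the 3 comparisons, against 3742, 1610 and 3582 with the block and 3331, 1289 and 3187 with a term for the R mark. They were 2637, 186 and 2358 without and 1066, 1079 and 1770 with the R mark alone, and 1632, 351 and 1556 with quantile normalisation. Centring gave 381 and 307 for the comparisons of SB590885 with DMSO and with PD325901, a variance trend 432 for the comparison with DMSO, and the 2 groups alone 225 for the comparison with PD325901. Leaving out 1 array gave 245 to 691, 72 to 126 and 281 to 509, and leaving out a number 33 to 318, 39 to 63 and 111 to 249.

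The differences that changed sign did not pass in any of those settings. PD325901 against DMSO was 0.047 for DUSP1 without the R mark (-0.287 to 0.0926 without 1 array). It was -0.0721 for DUSP2 with the R mark, -0.0205 without number 1 with or without the replicate block, and -0.0328 to 0.10 without 1 array. SB590885 against PD325901 was -0.0129 for DUSP8 with quantile normalisation (-0.08 to 0.23 without 1 array). For DUSP16 it was 0.0764 without the R mark, 0.0177 without number 4 with or without the replicate block, and -0.13 to 0.026 without 1 array. The cause of these changes was not tested. Values near the median of all probe sets limit how exactly a fall can be measured.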
